A study of Mus musculus with 18 samples.

Results

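The 39 coding *Hox* genes of the mouse were followed library by library in RNA-seq of 18 libraries labelled as aorta. They were taken as every symbol made of Hox, a cluster letter from a to d and a number, which gave 39 of the 55453 genes in the count tables. The *HoxA* cluster held 11 of them (GRCm38 chromosome 6, 52155590 to 52260880, minus strand), *HoxB* held 10 (chromosome 11, 96194316 to 96368256), *HoxC* held 9 (chromosome 15, 102921103 to 103036852) and *HoxD* held 9 (chromosome 2, 74668310 to 74765142), the last 3 clusters on the plus strand. The question was whether these genes, read as a code of position along the trunk, were alike from library to library and between mice with and without an edited *Tspan2* promoter.

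*Hox* genes encode homeodomain transcription factors that give cells their place along the head-to-tail axis. Within a cluster, genes at the 3′ end (low paralog numbers) are switched on early and reach far forward in the embryo, and genes at the 5′ end (high numbers) are restricted to the lumbosacral trunk, the tail, the distal limbs and the urogenital tract. Adult smooth muscle and fibroblasts keep much of this pattern, so the set of *Hox* transcripts in a vessel follows the level of the body from which its cells came.

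The edit lay in a CArG box, the binding site of serum response factor, upstream of *Tspan2*. In the HDR experiment a substitution spanning several bases was installed by homology-directed repair with Cas9, a guide and a donor oligonucleotide, and 12-week-old homozygous Tspan2 sg/sg mice (n = 5) were compared with wild type (n = 5), both labelled C57BL/6. In the PE2 experiment a lone C-to-G change was written by PE2, a prime editor that nicks 1 strand and copies the edit from its guide RNA, and 8-week-old homozygous Tspan2 peg/peg mice (n = 4) were set against wild type (n = 4) of the label FVB/N/B6(Cg)-Tyrc-2J/J. The edits were germline and therefore present in every cell, and each library was made from the aorta of a separate mouse after the outer fatty tissue was removed. Bladder, heart and brain were also collected by the study for other assays, and the segment of aorta was not given in the sources used here. HDR libraries are numbered below as in the table's columns (2 to 6), which were not tied to individual labelled mice or their sex, and wild-type replicate 4 was the male of the PE2 experiment.

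Depth was 17290992 to 24880385 counts per HDR library and 38820265 to 44895615 per PE2 library, of which *Hox* genes gave 3285 to 4983 and 8694 to 14656 counts. Levels are CPM, the share of a library's counts scaled to 1e6, after TMM scaling within each experiment. *Tspan2*, the edited gene, was at 112 to 265 CPM in HDR wild type and at 15.95 to 36.6 CPM in sg/sg, and at 186 to 284 CPM in PE2 wild type and 11.9 to 25.5 CPM in peg/peg, so that every library was on the side given by its genotype label. Smooth muscle markers were high in every library, with *Myh11*, the smooth muscle myosin heavy chain, at 6847 CPM or more in the HDR libraries and at 4726 CPM or more in the PE2 libraries.

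A pair of libraries stood apart in their *Hox* genes and touched many of the results that follow. They were PE2 peg/peg 3, in which 15 of the 39 genes were above and 20 below all other libraries of the experiment, and HDR wild type 3, in which 10 were above and 1 was below. In peg/peg 3 the markers went against the labelled tissue, with low elastic artery genes and high urothelial and visceral smooth muscle genes (values below), so it is called here by its label only. Whether it holds tissue other than aorta was not tested. Results that rested on this pair are given with and without them.

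Promoters were read for the genes that separated these libraries from the others and for *Hoxa5*, the only marker gene for which a promoter was in the table used, because members of opposite ends of a cluster moved in opposite directions. The 250 bases upstream of the RefSeq start (GRCm38.p6) are shown 5′ to 3′ on the strand of the gene, with matches to the CCAAT box, to GGGCGG (a GC box) and to the TATA box TATAAA, on either strand, in capitals. *Hoxa5* lies on the minus strand at chr6:52204588-52204837, *Hoxa13* on the minus strand at chr6:52260881-52261130 and *Hoxd13* on the plus strand at chr2:74667975-74668224.
Hoxa5: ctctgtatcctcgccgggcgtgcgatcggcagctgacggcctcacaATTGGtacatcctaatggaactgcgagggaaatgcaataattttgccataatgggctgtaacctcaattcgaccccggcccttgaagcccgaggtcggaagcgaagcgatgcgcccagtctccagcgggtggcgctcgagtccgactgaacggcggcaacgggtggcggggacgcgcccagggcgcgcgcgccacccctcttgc
Hoxa13: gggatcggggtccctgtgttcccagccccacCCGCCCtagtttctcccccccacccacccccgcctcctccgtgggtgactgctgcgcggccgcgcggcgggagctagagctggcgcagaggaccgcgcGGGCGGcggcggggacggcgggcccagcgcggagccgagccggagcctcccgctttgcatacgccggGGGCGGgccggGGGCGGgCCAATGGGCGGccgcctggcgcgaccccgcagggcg
Hoxd13: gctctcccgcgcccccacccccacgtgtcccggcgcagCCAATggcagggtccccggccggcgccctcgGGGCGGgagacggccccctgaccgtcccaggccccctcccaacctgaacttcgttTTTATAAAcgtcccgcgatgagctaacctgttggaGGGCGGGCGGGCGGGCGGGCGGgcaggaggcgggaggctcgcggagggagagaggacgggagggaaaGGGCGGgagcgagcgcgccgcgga
The promoters of *Hoxa13* and *Hoxd13* held 5 and 7 matches to GGGCGG, overlapping matches counted, and that of *Hoxa5* held 0. A match to CCAAT was found 204 bases upstream of the start in *Hoxa5*, 36 in *Hoxa13* and 212 in *Hoxd13*, and TATAAA matched only in *Hoxd13*, 2 times as it overlaps its own reverse complement there. Of the 32851 promoters of the same length, 32.7% held GGGCGG, 33.8% held CCAAT and 12.4% held TATAAA. The homeodomain core TAATTA (4.84% of all promoters), the Pbx-Hox site TGATNNAT (7.68%) and the CArG box (1.47%) were not matched in these 3 windows. Of the 24 promoters available for 22 of the 39 members, 10 held GGGCGG, 14 CCAAT, 4 TATAAA, 4 TGATNNAT, 2 TAATTA and 0 the CArG box. The matches describe the letters of these windows only.

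**Figure D1:**
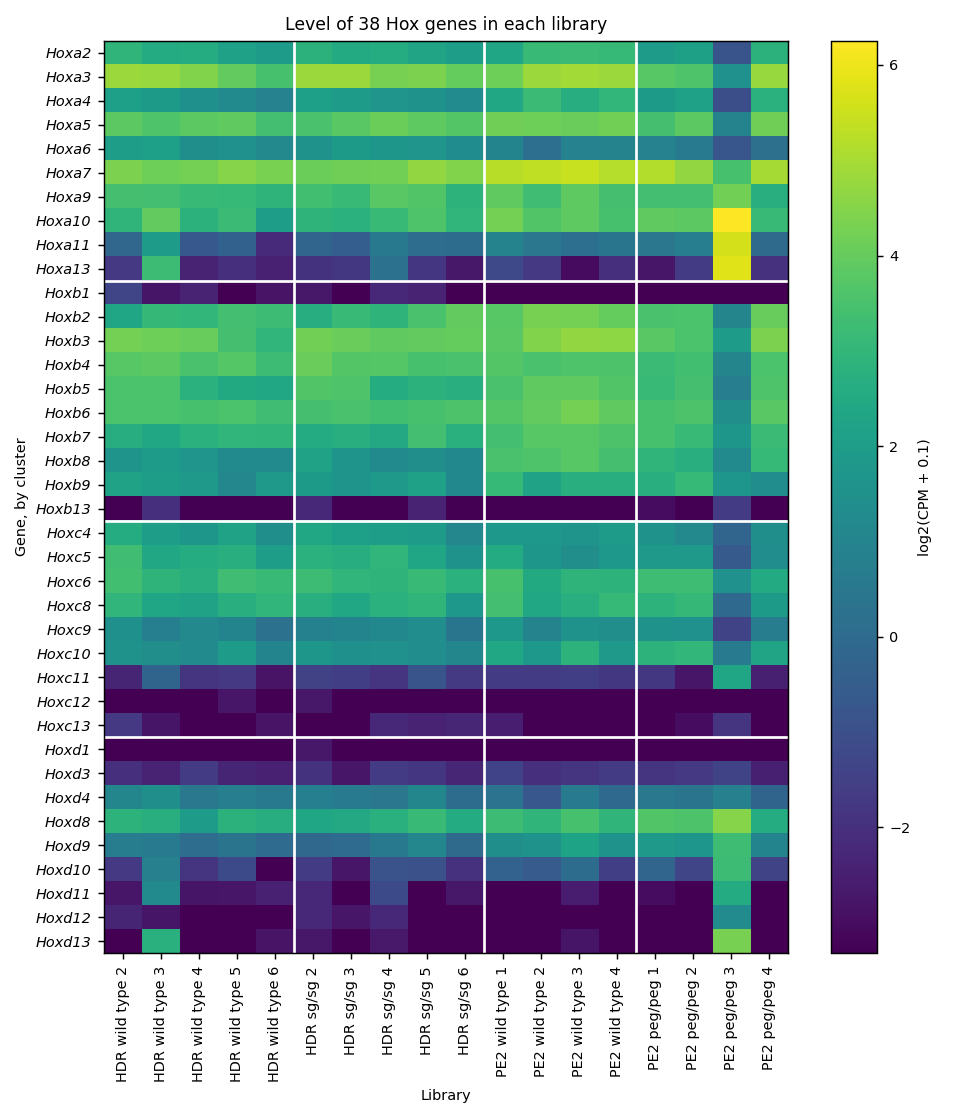
Level of 38 of the *Hox* genes (rows, by cluster and paralog number) in each of the 18 libraries (columns), as log2 of CPM plus 0.1, with white lines between clusters and groups. The column of PE2 peg/peg 3 is bright at the high-numbered ends of *HoxA* and *HoxD* and dark in the rest of *HoxA*, *HoxB* and *HoxC*, and HDR wild type 3 is bright at *Hoxa13* and *Hoxd13*.

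Outside that pair most *Hox* counts came from paralog groups 4 to 8. Per kilobase of exon, the highest members over the other 9 HDR libraries were *Hoxa5* at 7.31 ± 1.08 (SD) and *Hoxa7* at 7.08 ± 0.978 CPM per kb, whose spreads overlapped, followed by *Hoxb6* at 5.59 ± 0.315 CPM per kb. Over the other 7 PE2 libraries *Hoxa7* led at 12.4 ± 2.07 CPM per kb, followed by *Hoxa5* at 8.63 ± 1.54, *Hoxb6* at 7.19 ± 1.39 and *Hoxb7* at 7.19 ± 1.26 CPM per kb, the last 3 with overlapping spreads. *Hoxa7*, *Hoxb6*, *Hoxc6* and *Hoxd8* were the highest of their clusters over all 18 libraries, and *Hoxc6* (3.47 ± 0.550 HDR, 3.31 ± 0.883 PE2) and *Hoxd8* (2.27 ± 0.536 HDR, 3.42 ± 0.908 PE2, CPM per kb without the pair) were lower than the leaders of *HoxA* and *HoxB*. The levels of *Hoxb3*, *Hoxd3* and *Hoxd4* per kilobase are uncertain, as over 50% of their exon length overlaps another annotated gene.

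At the ends of the code little was detected. In PE2, *Hoxb1*, *Hoxc12* and *Hoxd1* had 0 counts in all 8 libraries, and in HDR these genes had at most 6, 1 and 1 counts in a library. Group 13 genes made up 0.0211% to 0.627% of all *Hox* counts in the 16 libraries outside the pair. After the filter on low counts, 27 members were tested in HDR and 28 in PE2, the difference being *Hoxd10*. The 11 that were left out of both were *Hoxa13*, *Hoxb1*, *Hoxb13*, *Hoxc11*, *Hoxc12*, *Hoxc13*, *Hoxd1*, *Hoxd3*, *Hoxd11*, *Hoxd12* and *Hoxd13*.

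Grouped by paralog number, the *Hox* counts of most libraries split in similar proportions. Groups 9 to 13 (posterior) took 11.6% to 22.3% of *Hox* counts, with a median of 13.99%, in the 16 libraries outside the pair. Groups 4 to 8 (central) took 55.2% to 65.4%, and groups 1 to 3 (anterior) took 18.9% to 31.4%. In PE2 peg/peg 3 the posterior share was 79.7% (95% Wilson interval 79.0% to 80.3%, counting error only) and the anterior share 3.19%. In HDR wild type 3 the posterior share was 25.5% (24.3% to 26.7%), with an anterior share of 25.9% that lay inside the range of the others.

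**Figure D2:**
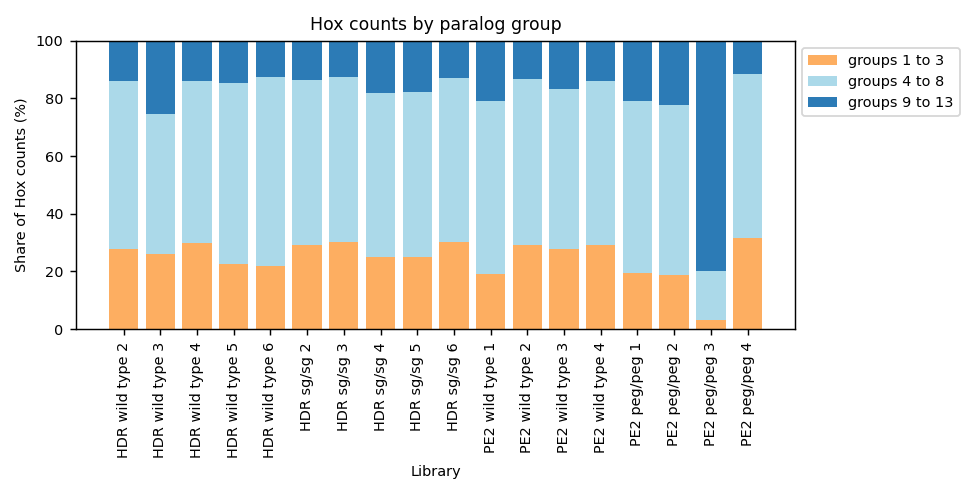
Share of all *Hox* counts (%) in each library that fell in paralog groups 1 to 3, 4 to 8 and 9 to 13, as stacked bars summing to 100. Groups 9 to 13 fill 79.7% of the bar of PE2 peg/peg 3 and 25.5% of that of HDR wild type 3, against 11.6% to 22.3% elsewhere.

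By group, the posterior share was 16.1% ± 5.27 (SD, n = 5) in HDR wild type and 15.0% ± 2.66 (n = 5) in sg/sg. Without wild type 3 the first value was 13.8% ± 0.875 (n = 4). In PE2 it was 16.3% ± 3.42 (n = 4) in wild type and 33.6% ± 31.1 (n = 4) in peg/peg, the latter 18.2% ± 5.80 (n = 3) without replicate 3. The count-weighted mean paralog number was 5.31 to 6.27 in the 16 libraries and 10.1 in peg/peg 3, and in HDR wild type 3 it was 6.22, inside the range of the 16 and above the other HDR libraries (at most 5.83). All *Hox* genes together came to 152 to 314 CPM in the 16 libraries and to 322 CPM in peg/peg 3. Their sum was 271 to 314 CPM in PE2 wild type and 221 to 234 CPM in peg/peg without replicate 3. The sum in peg/peg 3 was thus above all others but close to the highest of them, while its makeup was not.

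*Hoxa5*, a gene of the cervical and upper thoracic trunk that patterns lung and airway, was at 14.3, 12.3, 14.3, 15.0 and 10.4 CPM in HDR wild type 2 to 6 and at 11.2, 13.9, 17.1, 14.5 and 12.7 CPM in sg/sg 2 to 6. It was at 18.2, 17.6, 16.6 and 18.5 CPM in PE2 wild type and at 10.54, 14.2, 1.85 and 17.8 CPM in peg/peg. The HDR groups overlapped, the PE2 wild-type libraries lay close together, and peg/peg 3 was far below every other library.

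*Hoxc9*, a gene of the thoracic level, was at 2.66, 1.65, 2.16, 1.87 and 1.10 CPM in HDR wild type and at 1.75, 1.88, 2.09, 2.48 and 1.224 CPM in sg/sg. In PE2 it was at 3.39, 1.83, 2.91 and 2.55 CPM in wild type and at 2.86, 2.80, 0.286 and 1.56 CPM in peg/peg. Again the genotypes overlapped and peg/peg 3 was the lowest.

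*Hoxc10*, which marks the lumbar level and the hindlimb, was at 2.86, 2.55, 2.25, 3.70 and 1.90 CPM in HDR wild type and at 3.22, 2.702, 2.77, 2.48 and 2.02 CPM in sg/sg. In PE2 it was at 5.17, 3.38, 7.22 and 3.43 CPM in wild type and at 7.22, 8.04, 1.47 and 4.72 CPM in peg/peg. All 3 marker genes were thus lowest in peg/peg 3, including the one from the lumbar level.

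**Figure D3:**
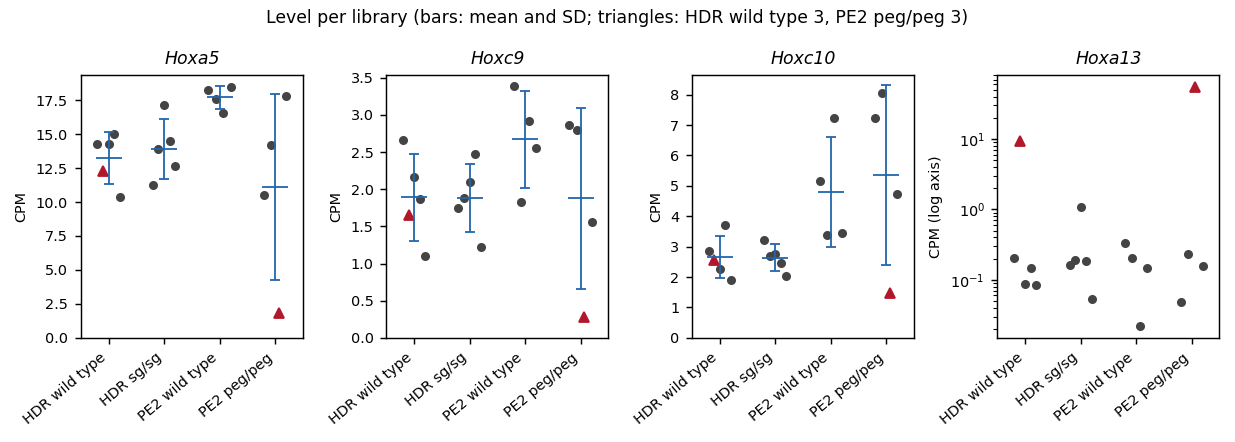
Level (CPM) of *Hoxa5*, *Hoxc9*, *Hoxc10* and *Hoxa13* in each library by group, with the mean and SD of each group as bars for the first 3 and a log axis for *Hoxa13*. Triangles mark HDR wild type 3 and PE2 peg/peg 3, the latter lowest for the first 3 genes and highest, at 55.7 CPM, for *Hoxa13*.

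The genes past the lumbar level went the other way in peg/peg 3. *Hoxa13*, needed for the distal limb, hindgut and urogenital tract, had 2535 counts (55.7 CPM) there and 1 to 13 counts in the other 7 PE2 libraries, a fold of 356 over their median. *Hoxd13*, the last gene of its cluster and known for digit and external genital development, had 894 counts (19.6 CPM) against 0 to 2. For both genes this library lay far outside the range of the other 7.

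Along *HoxA* the ratio of peg/peg 3 to the median of the other 7 libraries turned from low to high between groups 7 and 9. *Hoxa2* was 15.0-fold lower at 0.461 CPM, *Hoxa3*, which patterns pharyngeal arch derivatives such as the thymus, was 9.80-fold lower at 2.79 CPM, and *Hoxa4* was 15.4-fold lower at 0.395 CPM. *Hoxa5* was 9.52-fold, *Hoxa6* 3.70-fold and *Hoxa7* 3.29-fold lower. *Hoxa9* was 1.75-fold higher at 18.3 CPM, *Hoxa10*, a gene of the lumbar trunk and the reproductive tract, 5.40-fold higher at 76.2 CPM, and *Hoxa11* 38.8-fold higher at 49.5 CPM. The genes from *Hoxa2* to *Hoxa7* were below, and all 4 from *Hoxa9* on above, every other PE2 library.

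In the other clusters the break lay elsewhere. In *HoxB*, 7 of 10 genes were below every other library, *Hoxb2* by 8.28-fold, and *Hoxb9* was inside the range of the others, while *Hoxb13*, at the 5′ end, had 10 counts against at most 1. In *HoxC* the genes from *Hoxc4* to *Hoxc10* were below every other library and *Hoxc11* was 25.0-fold above their median with 223 counts against 2 to 11, which put the break between groups 10 and 11. In *HoxD* no gene was below the others and 8 of 9 were above, with *Hoxd8* 2.44-fold, *Hoxd9* 3.26-fold and *Hoxd10* 16.1-fold higher, and *Hoxd11* and *Hoxd12* at 264 and 108 counts against at most 3 and 0. The noncoding transcripts next to the 5′ genes were also high there, with *Hottip*, beside *Hoxa13*, at 147 counts against 0, *Hotair*, inside *HoxC*, at 3.43 CPM against at most 0.177, and *Hoxa11os* at 21.0 CPM against at most 0.510. Reads of *Hoxa11* and *Hoxa11os* cannot be told apart with certainty, since 35.0% of the exon length of *Hoxa11* overlaps it and the strand setting of the counting was not stated.

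**Figure D4:**
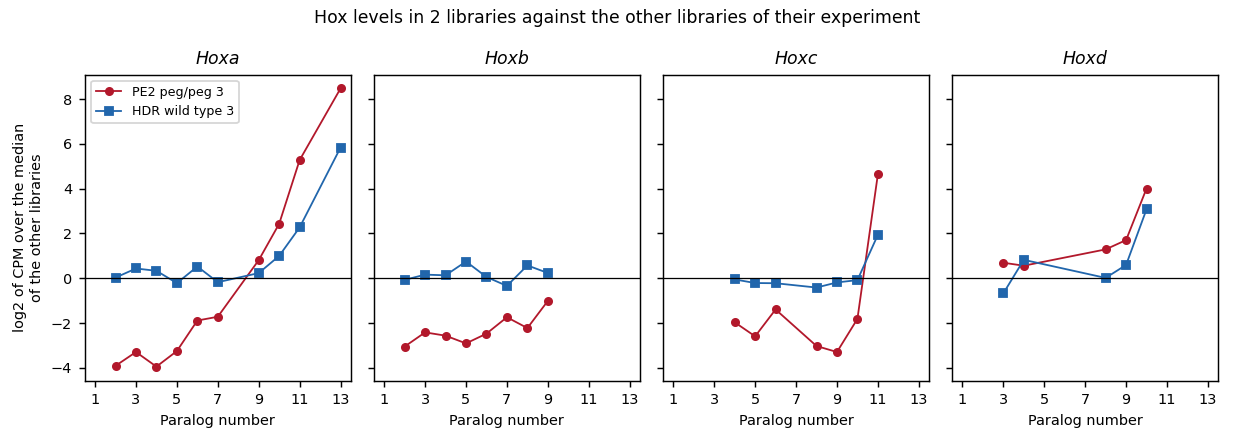
Log2 ratio of CPM in PE2 peg/peg 3 (circles) and HDR wild type 3 (squares) to the median of the other libraries of the same experiment, by paralog number, for members whose median elsewhere was at least 3 counts. In *HoxA* the circles rise from -3.91 at *Hoxa2* through 0.81 at *Hoxa9* to 8.48 at *Hoxa13*, and the squares leave 0 at *Hoxa10*.

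Genes of other tissues moved with the *Hox* genes in that library. All 8 genes of a urothelial list were above 1 CPM in peg/peg 3 and summed to 1230 CPM against 6.03 to 54.1 CPM in the other 7, with the urothelial plaque protein gene *Upk1a* at 229 CPM against at most 13.7 CPM. All 5 genes of a visceral smooth muscle list summed to 14700 CPM against 259 to 558 CPM, led by the enteric actin gene *Actg2* at 8942 CPM. All 4 genes of a hindlimb and pelvic list summed to 228 CPM against 2.37 to 5.06 CPM, with *Pitx1*, a hindlimb identity factor, at 96.9 CPM against at most 0.309 CPM and *Tbx4* at 41.7 CPM against at most 0.0254 CPM. The labelled tissue's own genes were low, since 5 elastic artery genes summed to 974 CPM against 16353 to 42457 CPM, elastin (*Eln*) was at 622 CPM against 11617 to 34850 CPM and *Sost* had 0 counts against at least 302 CPM. In the HDR libraries *Eln* was also low, at 430 to 2915 CPM, a range that holds the value of peg/peg 3. There the elastic artery list summed to 4493 CPM or more and *Sost* was at 108 CPM or more.

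Among the lists of cell types, smooth muscle markers summed to 63769 CPM in peg/peg 3 against 27924 to 46904 CPM, endothelial markers to 522 against 1166 to 2832 CPM, fibroblast markers to 11367 against 5365 to 9978 CPM and brown fat markers to 14.3 against 494 to 2415 CPM, with *Zic1* at 0. Heart muscle markers summed to 1125 against 23.6 to 163 CPM, mostly *Tnnt2* (518 CPM) and *Actc1* (509 CPM), while *Myh6*, the atrial and ventricular myosin gene, was at 1.34 CPM. Skeletal muscle markers summed to 1191 against 8.78 to 26.6 CPM, mostly the actin gene *Acta1*, with *Pvalb* at 0. Outflow tract and arch genes, from the forward end of the aorta, summed to 289.9 against 27.0 to 44.3 CPM, led by *Tbx2* (89.8 CPM) and *Tbx3* (69.7 CPM). In that list *Tbx1* was at 2.09 CPM, below the other libraries (4.10 to 8.72 CPM), and *Nkx2-5* was at 0. Lung and oesophagus genes summed to 189.8 against 0.703 to 9.70 CPM, mostly the keratin gene *Krt5* (175 CPM), which was also in the urothelial list. The lung genes *Sftpc*, *Sftpa1* and *Scgb1a1* were inside the range of the others. The part of these genes' source tissues in the *Hox* values was not tested. In bulk RNA, fewer cells of a type cannot be told apart from less RNA per cell. The lists of urothelium, visceral smooth muscle, hindlimb and pelvic patterning and elastic artery were drawn up after the values were seen.

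HDR wild type 3 showed the 5′ rise without the 3′ fall. *Hoxa13* had 198 counts (9.36 CPM) there against 1 to 19 in the other 9 HDR libraries, 57.1-fold above their median. *Hoxd13* had 141 counts against 0 to 1, *Hoxd11* 48 against 0 to 6 and *Hoxd10* 36 against 0 to 9. *Hoxa11* was 4.82-fold, *Hoxc11* 3.84-fold and *Hoxa10* 2.00-fold above the median of the others. Of the 23 genes of groups 1 to 8, 20 were inside the range of the other libraries, 2 were above (*Hoxa6* and *Hoxd4*) and 1 below (*Hoxb7*), while 6 of the 9 genes of groups 11 to 13 were above all others.

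Some of the same lists were outside the range of the other libraries. In HDR wild type 3 the visceral smooth muscle list summed to 2119 CPM against 136 to 305.4 CPM, the hindlimb and pelvic list to 23.7 against 2.62 to 10.46 CPM and the urothelial list to 126 against 1.21 to 102 CPM. In the urothelial list only *Krt5*, *Krt7* and *Upk3b* were above all other libraries. *Upk1a*, *Upk1b*, *Upk2*, *Upk3a* and *Krt20* were inside the range of the others and higher in sg/sg 4. Heart muscle markers summed to 136 CPM against at most 34.9 and skeletal muscle markers to 158 against at most 80.1 CPM. Outflow tract and arch genes summed to 77.7 against at most 40.6 CPM, led by *Tbx20* (27.4 CPM), with *Tbx1* and *Isl1* inside the range of the others. Lung and oesophagus genes summed to 32.2 against at most 10.9 CPM, mostly the keratin genes *Krt5* (21.4 CPM) and *Krt4* (10.3 CPM). The elastic artery list, at 5211 CPM, and the sums of the smooth muscle, endothelial, fibroblast and brown fat lists were inside the range of the other 9. Of the smooth muscle genes, *Des* (945 against at most 111 CPM), *Mylk* (3110 against at most 2016 CPM), *Myh11* and *Cnn1* were above all others. *Acta2*, *Tagln*, *Lmod1* and *Smtn* were inside their range. *Eln* was at 792 CPM, also inside the range of the other 9 libraries (430 to 2915 CPM). HDR sg/sg 4, the library with 102 CPM of urothelial genes, also had the next highest *Hoxa13* count of the experiment at 19 (1.07 CPM), but *Hoxd13* was at 1 count and *Pitx1* at 0.283 CPM. The part of these genes in the *Hox* values of the HDR libraries was not tested either.

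The remaining libraries also differed among themselves. In PE2, wild type 1, peg/peg 1 and peg/peg 2 had posterior shares of 20.9%, 20.9% and 22.3% and anterior shares of 19.3%, 19.5% and 18.9%. Wild type 2, 3 and 4 and peg/peg 4 had posterior shares of 13.4%, 16.9%, 13.97% and 11.6% and anterior shares of 27.9% to 31.4%. *Hoxa3* was at 17.4, 13.6 and 12.2 CPM in the first 3 libraries and at 28.4, 30.6, 27.9 and 27.3 CPM in the other 4. Both sets held wild-type and peg/peg mice but not in equal parts, as most wild types and only peg/peg 4 fell in the second. The sets were formed from the values, so no test was run on them.

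In the HDR libraries the anterior share ran from 21.9% to 30.3% outside wild type 3. *Hoxa3* was at 28.1, 27.6, 21.4, 15.5 and 11.03 CPM in wild type 2 to 6 and at 27.9, 28.2, 19.5, 20.4 and 15.6 CPM in sg/sg 2 to 6. *Hoxb5*, of the lower cervical level, followed at 11.5, 11.5, 6.84, 5.57 and 5.20 CPM in wild type and at 12.3, 12.2, 5.94, 7.01 and 6.49 CPM in sg/sg. *Xist*, the transcript of the inactive X chromosome, was under 2 CPM in wild type 5 and 6 and sg/sg 5 and 6 and at 1120 CPM or more in the other 6, so the 3 lowest *Hoxa3* values of the experiment fell among the former, and the part of sex in these values was not tested. Sex was balanced between the genotypes by this measure.

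The first genotype question was whether sg/sg aortae differed from wild type in any *Hox* gene. In the edgeR quasi-likelihood test with Benjamini-Hochberg adjustment over 16423 genes, 0 of 27 tested members passed an adjusted p of 0.05, against 1 gene in all, which was *Tspan2* (0.00609% of genes). At an unadjusted p of 0.05 the count was 0 of 27 members against 1.98% of all genes, and DESeq2 (0.00933% of all genes called, 1.6% at an unadjusted p of 0.05) and limma-voom (0.00609% and 1.6%) also gave 0 members by both rules. DESeq2 gave no adjusted p for 3 members. With every gene of at least 1 count tested, 3 of 39 members had an unadjusted p under 0.05, against 6.02% of genes, and these were *Hoxa13*, *Hoxd11* and *Hoxd13*, 3 of the genes that were high in wild type 3. The smallest p was that of *Hoxa9* (log2 fold change 0.21 ± 0.19 SE, adjusted p = 1.00 by edgeR), with group means of 10.48 and 9.07 CPM in sg/sg and wild type. Others among the lowest were *Hoxd4* at -0.27 ± 0.27, *Hoxb2* at 0.25 ± 0.26, *Hoxb3* at 0.18 ± 0.22 and *Hoxa4* at 0.16 ± 0.26.

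The marker genes gave a log2 fold change of 0.07 ± 0.14 SE for *Hoxa5*, -0.00051 ± 0.28 for *Hoxc9* and -0.0063 ± 0.22 for *Hoxc10* in HDR. Over the 27 members 12 values were above and 15 below 0, and the median was -0.0012 against 0.0030 for all genes tested. No member had all sg/sg libraries above or all below wild type, against 0.122% and 0.195% of genes. Without wild type 3, *Hoxa11* moved from -0.31 ± 0.66 to 0.81 ± 0.45 and *Hoxa10* from -0.0052 ± 0.30 to 0.31 ± 0.25, and 0 members passed at either threshold in edgeR, against 0.00602% and 1.99% of genes. Exact two-sided permutation tests on CPM gave p = 0.333 for *Hoxa9*, 0.651 for *Hoxa5*, 0.992 for *Hoxc9* and 0.976 for *Hoxc10* with 5 libraries a group, where 0.00794 is the smallest possible.

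In PE2 the same comparison depended on replicate 3. With all 8 libraries, 0 of 28 members passed an adjusted p of 0.05 in edgeR, against 1 of 16401 genes (0.0061%), again *Tspan2*. At an unadjusted p of 0.05, 2 of 28 members passed, against 4.3% of all genes. DESeq2 called 0 members (0.111% of all genes), with 2 of 29 at an unadjusted p of 0.05 (3.59%), and limma-voom called 0 (0.0061%), with 4 of 28 (3.27%). DESeq2 gave no p for *Hoxa11*, *Hoxa13*, *Hoxc11*, *Hoxd10*, *Hoxd11*, *Hoxd12* and *Hoxd13*, all highest in peg/peg 3. Its counts therefore say nothing of these members. In all, 9 members had no adjusted p there. The members at this level in edgeR were *Hoxb8*, a central gene known from the thoracic trunk and blood progenitors, at -0.93 ± 0.36 and *Hoxa11* at 3.32 ± 1.36 (adjusted p = 0.861 by edgeR for both). *Hoxa13*, *Hoxd11*, *Hoxd12*, *Hoxd13* and *Hoxc11*, high in 1 library only, did not pass the filter. With every gene of at least 1 count tested, 6 of 36 members had an unadjusted p under 0.05, against 4.1% of genes, 5 of them higher in peg/peg (*Hoxa11*, *Hoxa13*, *Hoxd11*, *Hoxd12* and *Hoxd13*) and *Hoxb8* lower.

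*Hoxb8* was at 11.1, 12.1, 13.4 and 10.7 CPM in PE2 wild type and at 7.68, 6.39, 2.28 and 8.498 CPM in peg/peg. Every peg/peg library was below every wild-type library. The gap between the highest peg/peg and the lowest wild-type value was 8.498 to 10.7 CPM, and without replicate 3 the log2 fold change was -0.66 ± 0.15 (adjusted p = 0.615 by edgeR). *Hoxb8* was the member that changed its call between tools, since DESeq2 without replicate 3 called it (log2 fold change -0.65 ± 0.17, adjusted p = 0.0326) as 1 of 35 members, against 0.35% of all genes, while edgeR and limma-voom without replicate 3 called 0, each against 0.012%. At an unadjusted p of 0.05 and without replicate 3, DESeq2 had 4 of 35 members (3.09% of genes) and limma-voom 3 of 28 (4.06%). In HDR the same gene was at -0.0012 ± 0.26.

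Besides *Hoxb8*, the groups did not overlap in PE2 for *Hoxa7* and *Hoxc4*, which made 3 of 28 members with peg/peg below wild type, against 1.1% of genes, and 0 with peg/peg above, against 1.43%. Without replicate 3 the counts were again 3 and 0, against 2.51% and 2.71%. *Hoxa7* was at 37.3, 40.1, 44.0 and 36.2 CPM in wild type and at 35.5, 25.8, 11.005 and 31.0 CPM in peg/peg. Its log2 fold change was -0.61 ± 0.31 with and -0.37 ± 0.13 without replicate 3 (adjusted p = 0.989 by edgeR). *Hoxb7* followed at -0.62 ± 0.33 with and -0.37 ± 0.15 without it. Exact two-sided permutation tests on CPM gave p = 0.0286, the smallest that 4 libraries against 4 can give, for *Hoxb8*, *Hoxa7* and *Hoxc4*. Without replicate 3 the exact permutation p was 0.0571 for all 3, the smallest that 3 against 4 can give. Groups that do not overlap always give these smallest values. As the 3 genes were picked for not overlapping, both p-values restate that and are no further support.

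Leaving out replicate 3 turned the sign of some posterior members, while others, such as *Hoxc9* and *Hoxc10*, kept theirs. *Hoxa11* went from 3.32 ± 1.36 to -0.10 ± 0.33, *Hoxd10* from 2.09 ± 1.17 to -0.45 ± 0.57 and *Hoxa10* from 1.00 ± 0.66 to -0.19 ± 0.24 on the log2 scale. *Hoxa5* went from -0.67 ± 0.54 to -0.33 ± 0.17, *Hoxc9* from -0.51 ± 0.60 to -0.16 ± 0.31 and *Hoxc10* from 0.16 ± 0.50 to 0.46 ± 0.32. Over the tested members, 21 of 28 values were below 0 with replicate 3 (median -0.58, against 0.013 over all genes) and 24 of 28 without it (median -0.34, against -0.014). The members were read in the same few libraries, so these signs are not independent of each other. The 3 members with an unadjusted p under 0.05 without replicate 3 were set against 4.1% of all genes.

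**Figure D5:**
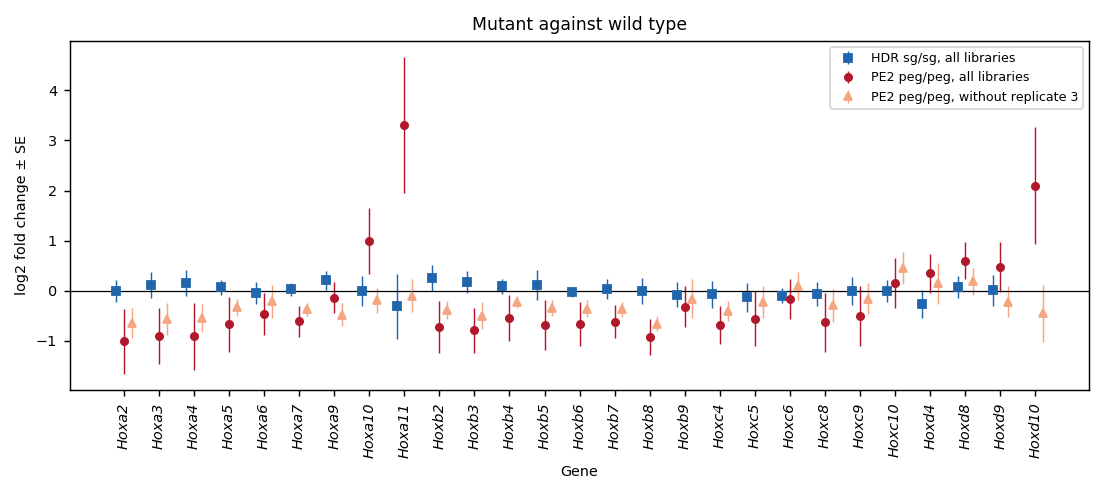
Log2 fold change of mutant over wild type (edgeR, bars SE) for 27 *Hox* genes tested in PE2, in HDR (squares), in PE2 with all libraries (circles) and in PE2 without peg/peg 3 (triangles). The HDR values lie between -0.31 and 0.25, and *Hoxa11*, *Hoxd10* and *Hoxa10* drop from 3.32, 2.09 and 1.00 to -0.10, -0.45 and -0.19 when peg/peg 3 is left out.

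Whether the genotype effect differed between the experiments was asked in 1 fit over both tables. By edgeR 0 of 28 members passed an adjusted p of 0.05, as did 0 of 18094 genes. DESeq2, which gave no adjusted p for 10 members, and limma-voom also called 0 members. At an unadjusted p of 0.05, 2 members passed, *Hoxa11* (difference 3.62 ± 1.46 on the log2 scale) and *Hoxb8* (-0.95 ± 0.44), against 5.13% of genes, and DESeq2 had 1 of 32 (2.84% of genes; 0.0275% called) and limma-voom 3 of 28 (3.13%) at that level. Without both libraries that stood apart the difference for *Hoxb8* was -0.78 ± 0.32 (adjusted p = 1.00 by edgeR), and 2 members, *Hoxb8* and *Hoxa9*, had an unadjusted p under 0.05, against 2.94% of genes.

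Wild-type aortae of the 2 experiments differed in *Hox* levels, as they did in most genes. Of 28 members 9 passed an adjusted p of 0.05, against 55.7% of the 18094 genes tested, which is 32.1% of the members. Of these, 7 were lower in HDR, against 26.1% of genes, led by *Hoxb8* (log2 difference of HDR minus PE2 -2.04 ± 0.32, 2.89 and 11.8 CPM) and *Hoxa7* (-0.99 ± 0.23, 19.9 and 39.4 CPM), with *Hoxd9* (-1.43 ± 0.40), *Hoxb7* (-0.87 ± 0.27), *Hoxa4* (-1.29 ± 0.48), *Hoxb9* (-0.86 ± 0.32) and *Hoxb2* (-1.05 ± 0.41). Higher in HDR, as were 29.6% of genes, were *Hoxa6* (0.94 ± 0.32) and *Hoxd4* (0.87 ± 0.34). Without both libraries that stood apart 16 members passed, against 56.7% of genes, and without PE2 wild type 4 the count was 5 of 30, against 50.8%. Age, labelled strain and depth differed between the experiments in the same way as the edit and cannot be told apart. The labels name different strains, whereas the methods give the same strains for both experiments.

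Levels of the marker genes were also correlated across libraries within each experiment, in a family of 6 relations. *Hoxa5* and *Hoxc9* gave r = 0.71 and rho = 0.68 over 10 HDR libraries (permutation p = 0.0222 and 0.0336, adjusted p = 0.0665 and 0.201), and r = 0.55 without the 2 libraries farthest from the median of *Hoxa5*. *Hoxc9* and *Hoxc10* gave r = 0.86 and rho = 0.69 over 8 PE2 libraries (exact permutation p = 0.0143 and 0.0694, adjusted p = 0.0665 and 0.208), and r = 0.62 without the 2 farthest. No relation passed after adjustment, and in PE2 the pooled values rested on replicate 3, without which r of *Hoxc9* and *Hoxc10* was 0.53 and r of *Hoxa5* and *Hoxc9* went from 0.90 to -0.30. Centred on the genotype mean, *Hoxa5* and *Hoxc9* gave r = 0.71 in HDR, and *Hoxc9* and *Hoxc10* gave r = 0.95 in PE2, or 0.78 without peg/peg 3.

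The genes that work with or upstream of *Hox* genes were read in the same fits. Of the TALE homeodomain cofactors (*Pbx*, *Meis* and *Pknox* genes, which bind DNA with *Hox* proteins) 8 of 9 were tested in HDR and 9 in PE2, and 0 passed at either threshold. Of 19 Polycomb genes, which keep silent *Hox* genes off, 0 passed an adjusted p of 0.05 in either experiment, and *Rnf2* alone had an unadjusted p under 0.05 (PE2, 0.32 ± 0.14). Of 9 Trithorax and demethylase genes 0 passed at either threshold. Of the 18 genes of the retinoic acid and *Cdx* list, the inputs that start *Hox* expression in the embryo, 11 and 12 were tested and 0 passed after adjustment, with *Rara* at -0.30 ± 0.12 in HDR and *Aldh1a2*, a retinoic acid synthase, at 3.10 ± 1.23 in PE2, the members with an unadjusted p under 0.05.

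Without peg/peg 3, *Aldh1a2* no longer had an unadjusted p under 0.05, and the Polycomb genes *Cbx2* (-0.61 ± 0.21) and *Cbx8* (-0.45 ± 0.16) did, with an adjusted p of 0.989 by edgeR. Of the noncoding and antisense transcripts of the clusters, 17 of 18 were in the tables and 6 and 8 were tested in HDR and PE2, of which 0 passed after adjustment and *Hoxa11os* had the only unadjusted p under 0.05 (PE2, 4.00 ± 1.55, not under 0.05 without peg/peg 3). Of 6 other homeobox genes of *Hox* type, among them *Evx1* and *Evx2* at the 5′ ends of *HoxA* and *HoxD*, 0 were tested. Both *Evx* genes had counts in peg/peg 3 (90 and 28) and 0 in the other 7 PE2 libraries. The median log2 fold change of these lists was -0.20 to 0.08 in HDR and -0.43 to 0.20 in PE2, against 0.0030 and 0.013 over all genes tested.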

How the data were processed

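RNA-seq of 18 mouse aortae was analysed from the count tables that the authors deposited. They hold raw read counts per gene symbol, made, per the methods and the submitters' processing notes, with STAR 2.7.0f on GRCm38 and featureCounts of Subread 1.6.4. The strand setting was not stated, and labels and methods name different library kits. The authors also deposited normalised signal values, counts divided by DESeq2 1.22.1 size factors, which were not tested. TMM scaling, filterByExpr and glmQLFTest of edgeR 4.0.16 (R 4.3.3) were run on all genes of each experiment, and on both experiments jointly, with Benjamini-Hochberg adjustment, and checked on simulated data. DESeq2 1.42.0 and limma-voom 3.58.1 were alternatives. Exon lengths, overlaps and coordinates came from Gencode M21 (GRCm38), in which 39 members were matched, and promoters from RefSeq. Total counts of 17290992 to 44895615 limit the precision of low members. Replicates were separate mice. No libraries were duplicates. The values of 1 member are not reported here, though it stands in the counts and shares. Members and gene lists were chosen with earlier results of these data known. Named in full were the 3 markers, per cluster the highest member per kb and the highest-numbered with 1 CPM, the 6 smallest p-values per experiment and called members; others were named after their values were seen.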

Additional observations from a re-analysis of the deposited data

Results flagged for a closer look

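Within each group, the highest and lowest libraries were compared with the rest for 21 named *Hox* genes and the posterior share, and 16 of 88 group comparisons held a library far from the others by Dixon's criterion, which chance meets in about 1 of 20 groups. Several of these genes were named because of values in the libraries that stood apart, so the number of such groups is not a test. PE2 peg/peg 3 accounted for 5 of them, being highest for *Hoxa11* (49.5 CPM, others at most 1.603), *Hoxa13* (55.7 CPM, others at most 0.229), *Hoxd10* (9.27 CPM, others at most 0.776), *Hoxd13* (19.6 CPM, others at 0) and the posterior share (79.7%, others at most 22.3%). HDR wild type 3 accounted for another 5, with *Hoxa11* at 3.69 CPM, *Hoxa13* at 9.36 CPM, *Hoxd10* at 1.70 CPM, *Hoxd13* at 6.66 CPM and a posterior share of 25.5%. The values of urothelial, visceral smooth muscle and hindlimb genes beside both libraries are given in the report, and their part in these values was not tested.

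The other 6 were single values. HDR sg/sg 4 was highest for *Hoxa13* at 1.07 CPM. HDR sg/sg 5 was highest for *Hoxb7* at 10.4 CPM and HDR wild type 4 lowest for *Hoxd8* at 3.71 CPM. PE2 wild type 2 was lowest for *Hoxa6* at 1.03 CPM, and PE2 wild type 3 highest for *Hoxd9* at 4.57 CPM and for *Hoxd13* at 0.0441 CPM, the last of which is 2 counts.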

How the results depend on the processing

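The 0 *Hox* genes called in HDR, and the 0 called for genotype by experiment, were also 0 under all 20 and 25 alternatives run, including each library left out in turn (0). In PE2 the count was 0 under 20 of 21 alternatives and 1 with DESeq2 without peg/peg 3, an alternative chosen after seeing the data. Of all genes, the main fits called only *Tspan2* in HDR and in PE2, and 0 for genotype by experiment. Fits with fewer libraries or more terms can miss even large changes. A count of 0 from such a fit therefore does not by itself show that the result is stable. The replicate block gave 0 called members in PE2 and, on the column numbers and added after seeing the data, 0 in HDR. Numbers were not taken to pair the samples. Same-numbered deviations correlated at -0.046, -0.184, -0.036 and -0.254 in PE2 and at 0.614, 0.174, -0.183, 0.466 and 0.306 in HDR. In HDR most of these values were positive, but not every library correlated best with its own number. Whether the numbers pair mice in HDR was not settled. For wild type HDR against PE2 the count of 9 ran from 5 (without PE2 wild type 4) to 16 (without peg/peg 3) when 1 library was left out, and was 16 in edgeR and 15 in DESeq2 without both libraries that stood apart, also chosen after seeing the data.

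Counted over paralog groups 10 to 13, the posterior share was 8.16% in HDR wild type, 6.63% in sg/sg and 7.55% in PE2 wild type, with 24.5% in peg/peg. Without HDR wild type 3 and peg/peg 3 it was 5.69% and 9.36%, the former then below sg/sg. Over groups 9 to 13, leaving out 1 library gave 13.8% to 17.0%, 14.3% to 15.6%, 14.8% to 17.2% and, in peg/peg, 18.2% to 40.9%. The correlation of *Hoxc9* and *Hoxc10* in HDR turned to -0.29 without the 2 farthest libraries. In PE2, *Hoxa5* and *Hoxc9* turned to -0.23 without the 2 farthest and -0.30 without peg/peg 3, and *Hoxa5* and *Hoxc10*, at 0.69 in the main setting, to -0.14 (Spearman), -0.78 and -0.66. Of 799 alternative fold changes of named members, *Hoxb8* alone changed its call, once, as above. The sign turned in 86, of which 5 went beyond the SE of the alternative: *Hoxa11* in HDR without wild type 3 in each of 3 tools (0.81, 0.82 and 1.02), *Hoxd9* in HDR without sg/sg 5 (-0.28) and *Hoxd10* in PE2 with sex as a covariate and without peg/peg 3 (-0.71), the last alone also beyond its SE in the main setting. The cause was not tested. Members under the filter were not tested in the main fits, and their low counts outside HDR wild type 3 and peg/peg 3 limit what can be said of them.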
